A study of Mus musculus with 4 samples.

Results

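Fibroblast growth factor (FGF) ligands and the feedback genes that FGF signalling induces through the kinase ERK were followed in mouse somitic gastruloids with and without a compound that degrades Zeb2. The set held 10 genes, chosen by symbol: the ligands Fgf3, Fgf4, Fgf8 and Fgf17, the feedback inhibitors Spry1, Spry2, Spry4 and Dusp6, and the ETS transcription factors Etv4 and Etv5. All 10 were listed in the count tables, among 24831 genes in all, and all 10 passed the filter on low counts together with 13602 genes in total.

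Gastruloids are embryo models grown from stem cells that elongate along a body axis in culture, and the somitic kind forms segments once embedded in Matrigel. Every library came from the same E14 triple reporter line, in which the endogenous Zeb2 gene carries an HA-FKBP12F36V degron tag, so the controls carried the tag as well. All aggregates started from 300 cells per well, received 3 µM CHIR99021, which switches on the Wnt pathway, from 48 h and were moved into 10% Matrigel at 96 h. The dTAG-13 group, 2 libraries, received 100 nM dTAG-13, which recruits tagged protein for degradation, at 72 h and 96 h. The untreated group, 2 libraries, carries that word in its labels, whereas the protocol names DMSO as the control. The labels do not say whether the tagged line is 1 clone, how many gastruloids were pooled, or whether each replicate was an independent culture. The p-values therefore reflect only how far these 4 libraries scatter, which may be technical.

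FGF ligands bind receptor tyrosine kinases, and the signal passes through adaptor proteins, RAS and the RAF, MEK and ERK kinases. In the elongating embryo Fgf4 and Fgf8 are made in the primitive streak, tail bud and presomitic mesoderm, where they hold cells in an unsegmented state. Active ERK induces its own inhibitors, the Sprouty proteins and the ERK phosphatase Dusp6, together with Etv4 and Etv5, so these genes are widely used as a transcript readout of FGF and ERK activity.

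Libraries held 11491330 to 12716172 reads counted in genes. Levels are given as CPM, the reads of a gene per 1000000 reads in genes after TMM scaling of the library sizes, in the order untreated replicate 1, untreated replicate 2, dTAG-13 replicate 1 and dTAG-13 replicate 2. Zeb2 mRNA was 98.3, 164, 103 and 108 CPM, and the untreated and dTAG-13 libraries overlapped. The compound acts on the protein, so this mRNA level does not check the degradation.

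Across the transcriptome, edgeR's quasi-likelihood test with Benjamini-Hochberg adjustment called 0% of the 13602 genes tested at an adjusted p below 0.05, and 0 of the 10 FGF and feedback genes. Of all genes tested, 479, or 3.52%, had an unadjusted p below 0.05, and among the 10 genes these were Fgf17 and Spry1. DESeq2 called 40 genes at the same threshold, and 0 of the 10. Both dTAG-13 libraries lay above both untreated libraries in 14.4% of all genes and in 4 of the 10, Fgf8, Fgf17, Spry1 and Etv5. Both lay below in 11.9% of all genes and in 1 of the 10, Fgf3. The remaining 5 genes overlapped between the groups. The median log2 fold change was 0.16 over the 10 genes and 0.00 over all genes tested. In bulk RNA, a change in the number of cells of a type and a change in RNA per cell cannot be told apart, and this holds for every value below.

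**Figure D1:**
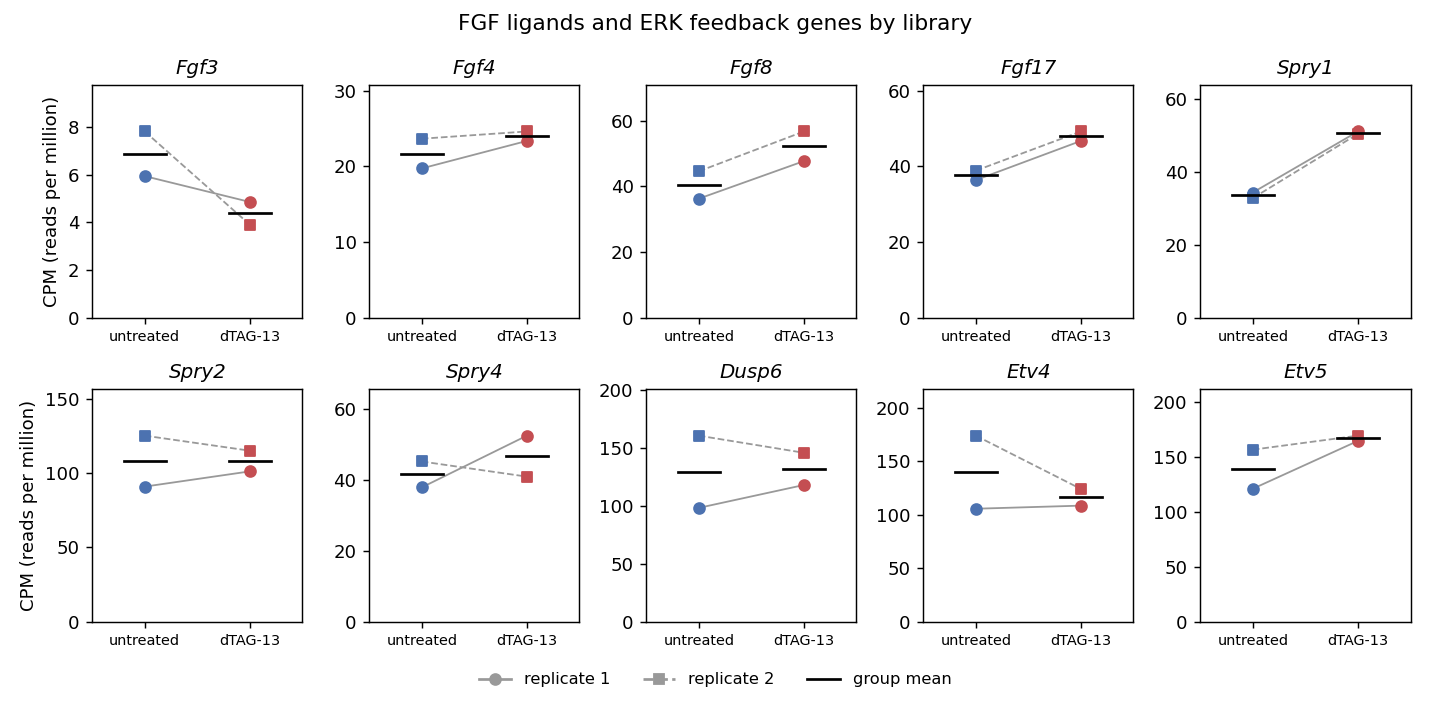
CPM of the 10 genes in each library; circles are replicate 1, squares replicate 2, grey lines join libraries of the same replicate number and black bars are group means of 2 libraries. The dTAG-13 libraries of Fgf8, Fgf17, Spry1 and Etv5 lie above both untreated ones, those of Fgf3 below, and the other panels overlap.

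Among the ligands, Fgf8, Fgf17 and Fgf4 had higher means and Fgf3 a lower mean with dTAG-13, with 0 of the 4 called. Fgf8, the main ligand of the tail bud and of the presomitic gradient, was at 36.2, 44.6, 47.7 and 56.7 CPM. Both dTAG-13 libraries lay above both untreated ones, by a small margin. The means were 40.4 ± 5.90 CPM untreated and 52.2 ± 6.39 CPM with dTAG-13 (SD, n = 2 each), a 1.29-fold difference. The fitted log2 fold change was 0.37 ± 0.17 (SE; 95% interval -0.04 to 0.79; edgeR adjusted p 1.00). Without dTAG-13 replicate 2 it was 0.22 and without untreated replicate 1 it was 0.21.

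Fgf17, a close relative of Fgf8 that is expressed with it in the embryo, was at 36.4, 38.9, 46.7 and 49.3 CPM. The groups did not overlap, and replicates of a group differed by less than the groups did. The means were 37.6 ± 1.77 and 48.0 ± 1.77 CPM (SD, n = 2 each), a 1.28-fold difference, with a log2 fold change of 0.35 ± 0.14 (SE; 95% interval 0.01 to 0.69). The unadjusted p was 0.0444 and the edgeR adjusted p was 1.00. The ratio of Fgf8 to Fgf17 reads within a library, which no scaling can change, was 0.996, 1.15, 1.02 and 1.15, and followed the replicate number rather than the treatment. Fgf8 lies on chromosome 19 (45736491 to 45742941, minus strand) and Fgf17 on chromosome 14 (70636203 to 70642268, minus strand) of GRCm38.p6.

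Fgf3 and Fgf4 are neighbours on chromosome 7, both on the plus strand, with 18037 bases between them (Fgf3 144838612 to 144843348, Fgf4 144861386 to 144865245). Fgf4, a ligand of the primitive streak and of pluripotent cells, was at 19.7, 23.7, 23.4 and 24.6 CPM. These libraries overlapped between the groups. The log2 fold change of Fgf4 was 0.15 ± 0.19 (SE; 95% interval -0.30 to 0.59), and it was 0.01 without untreated replicate 1.

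Fgf3, a ligand of the tail bud and the hindbrain region, was the rarest of the 10 genes, with 79, 88, 57 and 46 reads or 5.95, 7.83, 4.86 and 3.91 CPM. Both dTAG-13 libraries lay below both untreated ones. The 95% Poisson intervals, which cover counting error only, were 4.71 to 7.42 and 6.28 to 9.65 CPM for the untreated libraries. For the dTAG-13 libraries they were 3.68 to 6.30 and 2.86 to 5.21 CPM. Between the groups, only the intervals of untreated replicate 2 and dTAG-13 replicate 2 did not overlap. The means were 6.89 ± 1.33 and 4.38 ± 0.676 CPM (SD, n = 2 each), 1.57-fold lower with dTAG-13. The log2 fold change was -0.65 ± 0.35 (SE; 95% interval -1.49 to 0.19; edgeR adjusted p 1.00).

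Within libraries the reads of Fgf4 per read of Fgf3 numbered 3.32, 3.02, 4.81 and 6.30, and those of Fgf8 per read of Fgf3 numbered 6.09, 5.69, 9.81 and 14.5. Both ratios were higher in both dTAG-13 libraries than in either untreated library. These pairs were picked after the values were seen, and the ratios were given no test.

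The 250 bases before the start of 3 genes are shown because Spry1 had the smallest p of the set and Fgf3 and Fgf4 are neighbours whose values lay on opposite sides of 0. They were taken from RefSeq promoters of GRCm38.p6 and run 5′ to 3′ on the gene's strand, which is plus for all 3, at chr3:37639697-37639946 for Spry1, chr7:144838362-144838611 for Fgf3 and chr7:144861136-144861385 for Fgf4. Capitals mark a match to CACCTG, an E-box bound by ZEB proteins, here read on the opposite strand.
Spry1: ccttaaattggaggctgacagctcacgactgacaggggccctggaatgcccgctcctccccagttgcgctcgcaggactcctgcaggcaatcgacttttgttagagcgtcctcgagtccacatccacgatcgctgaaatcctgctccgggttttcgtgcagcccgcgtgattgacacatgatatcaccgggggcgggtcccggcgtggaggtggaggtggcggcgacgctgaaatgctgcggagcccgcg
Fgf3: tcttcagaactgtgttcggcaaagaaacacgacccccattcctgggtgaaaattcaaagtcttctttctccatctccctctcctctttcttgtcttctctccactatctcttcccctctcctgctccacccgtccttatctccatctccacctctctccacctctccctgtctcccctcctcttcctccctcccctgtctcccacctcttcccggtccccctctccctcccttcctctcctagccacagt
Fgf4: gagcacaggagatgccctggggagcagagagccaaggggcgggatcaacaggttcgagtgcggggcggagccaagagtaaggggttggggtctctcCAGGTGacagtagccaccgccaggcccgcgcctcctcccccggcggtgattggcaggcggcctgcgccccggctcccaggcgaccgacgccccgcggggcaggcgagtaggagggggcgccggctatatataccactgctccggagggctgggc
Promoters were searched for 6 of the 10 genes. Of these, 5 (Spry1, Fgf3, Dusp6, Spry2 and Etv5) held no match to CACCTG on either strand. Fgf4 held 1, which started 154 bases before the gene. Only this full string was searched, and shorter forms were neither counted nor marked. The shorter CACCT does occur in the Fgf3 stretch printed above and, on the opposite strand, in that of Spry1. A lack of capitals therefore does not mean a lack of sites that ZEB proteins could bind. Spry4 was left out of the search, and the table used held no entry for Fgf8, Fgf17 or Etv4. CACCTG occurred in 17.2% of the 32851 windows of this length before all gene starts in the table. CCGGAA, a core bound by ETS factors, occurred in 12.0% of all windows and in 0 of those of the 6 genes. A match is a description of letters, and no binding was measured here.

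**Figure D2:**
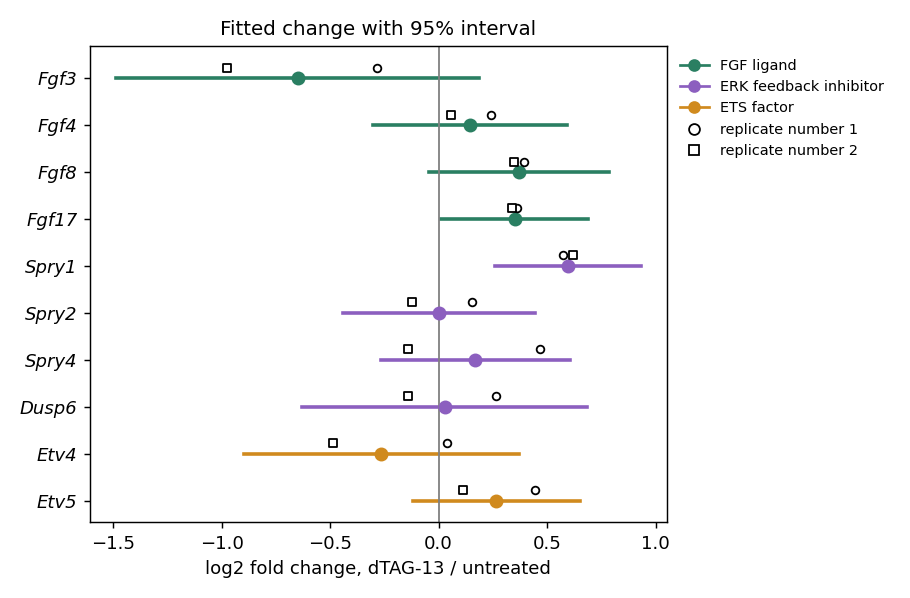
Fitted log2 fold change, dTAG-13 over untreated, with its 95% interval for each of the 10 genes (filled circles, coloured by role), and the difference within replicate number 1 (open circles) and number 2 (open squares). The intervals of Spry1 and Fgf17 lie above 0 and the other 8 include it.

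Among the feedback inhibitors, Spry1 stood higher with dTAG-13 while the log2 fold changes of Spry2, Spry4 and Dusp6 lay near 0 with wide intervals. Sprouty proteins block the relay from receptor tyrosine kinases to ERK inside the cell. Spry1 was at 34.3, 32.7, 51.0 and 50.4 CPM. The replicates of each group lay close together and the groups were well apart. The means were 33.5 ± 1.08 and 50.7 ± 0.465 CPM (SD, n = 2 each), a 1.51-fold difference (95% interval 1.20 to 1.91).

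The log2 fold change of Spry1 was 0.60 ± 0.14 (SE), with an unadjusted p of 0.00416 and an edgeR adjusted p of 0.790, which placed it 70th of 13602 genes by p. It did not pass the threshold, and its value was 0.57 to 0.62 when each library was left out in turn. Spry1 lies on chromosome 3 (37639947 to 37644599, plus strand), and 21.8% of its 50-base exon windows are also covered by an antisense model, Gm42922. The sources used here do not give the counting strand, so reads from the shared stretch cannot be assigned to either gene.

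Spry2 was at 90.8, 125, 101 and 115 CPM. The dTAG-13 libraries lay between the untreated ones. The means were 108.0 ± 24.2 and 108.0 ± 9.82 CPM (SD, n = 2 each), with a log2 fold change of 0.00 ± 0.19 (SE; 95% interval -0.44 to 0.44). The interval still allows a change of this gene in either direction, and its sign followed which library was left out (-0.23 without untreated replicate 1, 0.25 without untreated replicate 2).

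Spry4 was at 37.8, 45.1, 52.4 and 40.8 CPM. Its highest value was dTAG-13 replicate 1, while dTAG-13 replicate 2 lay between the untreated libraries. The log2 fold change of Spry4 was 0.17 ± 0.18 (SE; 95% interval -0.27 to 0.61), and -0.02 without dTAG-13 replicate 1. Reads of Spry1 per read of Spry2 within a library, a ratio picked after the values were seen, numbered 0.377, 0.262, 0.505 and 0.438, higher in both dTAG-13 libraries. Reads of Spry1 per read of Spry4 numbered 0.906, 0.726, 0.974 and 1.23, also higher in both.

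Dusp6, the cytoplasmic phosphatase that removes the activating phosphates of ERK, was at 98.4, 160.8, 118 and 146 CPM. Replicate 2 was the higher library in both groups, and the dTAG-13 libraries lay between the untreated ones. The means were 129.6 ± 44.1 and 132.1 ± 19.7 CPM (SD, n = 2 each), with a log2 fold change of 0.03 ± 0.26 (SE; 95% interval -0.63 to 0.68). The sign changed with the library left out, -0.30 without untreated replicate 1 and 0.43 without untreated replicate 2.

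The ETS factors Etv4 and Etv5, paralogs that ERK induces and that carry FGF responses to target genes, had means on opposite sides. Etv4 was at 105.5, 174, 108 and 124 CPM. Its highest library was untreated replicate 2, and the other 3 lay close together. The log2 fold change of Etv4 was -0.26 ± 0.25 (SE; 95% interval -0.90 to 0.37), and 0.14 without untreated replicate 2.

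Etv5 was at 120.9, 156, 164 and 169 CPM. Both dTAG-13 libraries lay above both untreated ones, and untreated replicate 1 stood apart below the other 3. The means were 138.7 ± 25.1 and 166.8 ± 3.37 CPM (SD, n = 2 each), a 1.20-fold difference, with a log2 fold change of 0.27 ± 0.16 (SE; 95% interval -0.12 to 0.65). Without untreated replicate 1 it was 0.08. Of the 50-base exon windows of Etv5, 24.5% also occur in another gene model, Gm4798, so reads from them may align to either. The sources used here do not say how such reads were counted.

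Reads of Etv5 per read of Etv4 within a library numbered 1.15, 0.900, 1.52 and 1.36. Both dTAG-13 libraries were above both untreated ones for this ratio, which was picked after the values were seen and given no test. A ratio that differs between libraries does not say which gene of the pair differs, and this ratio also differed between the untreated replicates.

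Within replicate number 1, dTAG-13 minus untreated on the log2 CPM scale was above 0 for 9 of the 10 genes, with Fgf3 at -0.28 and the highest value, 0.57, for Spry1. Within number 2 it was above 0 for 5 genes and below 0 for 5. The 6 feedback genes (inhibitors and ETS factors) were all above 0 within number 1, and 4 of them (Spry2 -0.12, Spry4 -0.14, Dusp6 -0.14 and Etv4 -0.49) were below 0 within number 2. The genes above 0 within both numbers were Fgf4 (0.24 and 0.06), Fgf8 (0.39 and 0.35), Fgf17 (0.36 and 0.34), Spry1 (0.57 and 0.62) and Etv5 (0.44 and 0.11), and Fgf3 was below 0 in both (-0.28 and -0.97). Over all genes tested, 27.7% were higher and 23.9% lower with dTAG-13 within both numbers. The share above 0 within 1 number alone was not counted over all genes.

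The replicates of a group also differed from each other. Replicate 2 was the higher library in both groups for 7 of the 10 genes, lower in both for Spry1, and of mixed direction for Fgf3 and Spry4. The share of all genes with such a direction was not counted. Same-numbered libraries deviated together from their group means over all genes kept (correlation 0.63), so this is not particular to the 10 genes. The difference of replicate 2 minus replicate 1 in the untreated group was 0.72 for Etv4, 0.71 for Dusp6 and 0.46 for Spry2 on the log2 scale, against 0.10 for Fgf17 and -0.07 for Spry1. The median absolute difference over the 10 genes was 0.334 between the untreated replicates and 0.189 between the dTAG-13 replicates. The median absolute treatment difference was 0.321 within number 1 and 0.241 within number 2.

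The median log2 fold change of the 4 ligands was 0.25, with 0.30 within number 1 and 0.20 within number 2. Leaving out untreated replicate 1 gave 0.11, leaving out dTAG-13 replicate 2 gave 0.15 and leaving out untreated replicate 2 gave 0.34. The 6 feedback genes had a median of 0.10, with 0.35 within number 1 and -0.13 within number 2, and the sign turned without untreated replicate 1 (-0.10), against 0.36 without untreated replicate 2. Over all genes tested the medians were 0.02 and 0.00 within numbers 1 and 2.

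Summed over the 4 ligands, levels were 98.3, 115, 122.7 and 134.5 CPM. Both dTAG-13 libraries lay above both untreated ones. Summed over the 6 feedback genes, levels were 487.7, 693.9, 595.4 and 645.3 CPM, with the dTAG-13 libraries between the untreated ones.

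To set genes against each other, CPM was divided by exon length (GENCODE M21), as CPM per kb. In untreated gastruloids the order was Etv4 (58.2 ± 20.1), Spry2 (51.7 ± 11.6), Dusp6 (46.3 ± 15.8), Etv5 (34.4 ± 6.23), Fgf8 (29.9 ± 4.37), Fgf17 (22.3 ± 1.05), Spry1 (11.5 ± 0.373), Spry4 (8.72 ± 1.08), Fgf4 (7.16 ± 0.917) and Fgf3 (3.00 ± 0.578 CPM per kb, SD, n = 2). Each of the first 5 overlapped with its neighbour among them, and from Fgf8 downward no neighbours overlapped. With dTAG-13, Spry2 (51.8 ± 4.71) and Etv4 (48.4 ± 4.58 CPM per kb) changed places at the top, overlapping with each other, and the order of the other 8 was as in the untreated group. Neighbours with dTAG-13 also overlapped for Etv4 and Dusp6 and for Etv5 and Fgf8. The exon lengths come from an annotation that need not be the one used for counting.

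**Figure D3:**
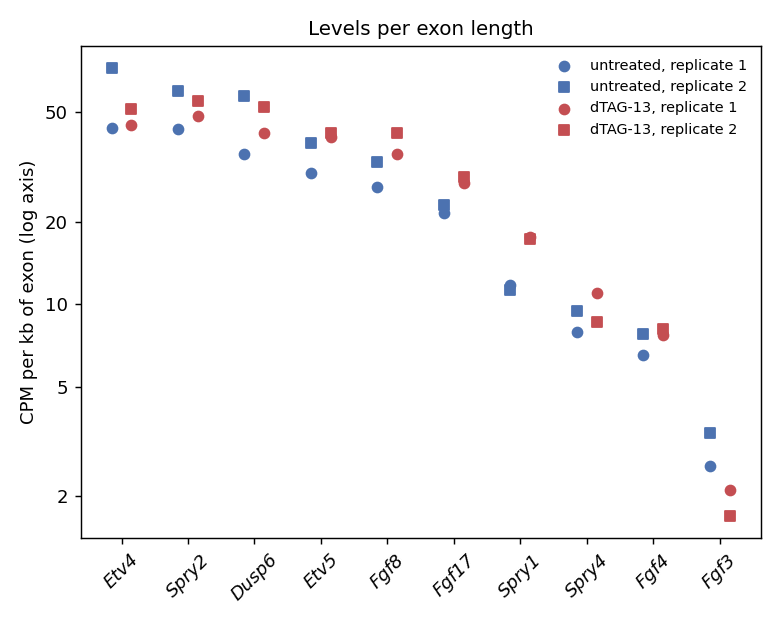
CPM per kb of exon on a log axis for the 10 genes in each of the 4 libraries, ordered by the untreated mean; blue is untreated, red is dTAG-13, circles are replicate 1 and squares replicate 2. Etv4, Spry2, Dusp6, Etv5 and Fgf8 form a group of overlapping neighbours in the untreated libraries and Fgf3 is the lowest gene in each library.

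The wider pathway was described with 69 other genes, of which 59 passed the filter on low counts. None of the 59 was called by edgeR at an adjusted p below 0.05, and none by DESeq2. Only Dusp9 had an unadjusted p below 0.05. Groups did not overlap for 14 of the 59 genes higher and 6 lower with dTAG-13, beside 14.4% and 11.9% of all genes tested, and the median log2 fold change was 0.02, against 0.16 for the 10 genes above and 0.00 for all genes tested. The 3 genes named in each list below were those with the smallest p.

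Of 18 other FGF family genes 12 passed the filter, with a median log2 fold change of -0.35 and values from -0.81 to 1.13. The other 6 (Fgf6, Fgf7, Fgf20, Fgf21, Fgf22 and Fgf23) had at most 4 reads in any library. Fgf15, a ligand of the neural tube and gut, was at 18.4, 29.8, 9.64 and 17.7 CPM, lower in both dTAG-13 libraries than in either untreated one (-0.81 ± 0.38, log2 fold change and SE). Fgf12, an intracellular family member that does not act through receptors, was at 1.36, 0.979, 0.682 and 0.679 CPM, and Fgf16 at 0.829, 0.267, 1.02 and 1.44 CPM, both at low levels where few reads stand behind each value. Fgf9 at 12.3, 4.89, 28.5 and 6.54 CPM and Fgf10 at 21.3, 6.41, 38.0 and 12.7 CPM, named after their values were seen, differed more between replicates than between groups. Within numbers 1 and 2 both were higher with dTAG-13, by 1.20 and 0.41 (Fgf9) and 0.83 and 0.96 (Fgf10) on the log2 scale. Of the 12 genes kept, 4 were higher and 7 lower within both numbers.

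Of 7 receptors and coreceptors 6 passed the filter, with a median of -0.07 and a range of -0.29 to 0.05. Kl, the coreceptor of endocrine FGFs, had at most 2 reads. Fgfr1, the main receptor of paraxial mesoderm, was at 187, 208, 166 and 184 CPM, and both dTAG-13 libraries lay below both untreated ones (-0.18 ± 0.14, log2 fold change and SE). Fgfr2, an epithelial receptor in many tissues, was at 60.3, 84.3, 67.7 and 50.4 CPM and Fgfr3 at 10.2, 9.34, 9.55 and 8.66 CPM, and both overlapped between the groups.

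All 18 adaptor and RAS to ERK cascade genes passed the filter, with a median of 0.09 and a range of -0.11 to 0.27. Both dTAG-13 libraries were higher in 6 of the 18 and lower in 1, beside 14.4% and 11.9% of all genes. Frs2, the docking protein of FGF receptors, was at 85.1, 81.9, 100.5 and 100.5 CPM (0.27 ± 0.13, log2 fold change and SE). Gab1, an adaptor, was at 147, 148, 161 and 178 CPM and Braf, a RAF kinase, at 192, 181, 220 and 204 CPM, also without overlap.

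All 11 other feedback genes passed the filter, with a median of 0.03 and a range of -0.29 to 0.70, and both dTAG-13 libraries were higher in 4 of the 11 and lower in 0, beside 14.4% and 11.9% of all genes. Dusp9, an ERK phosphatase, was at 13.6, 14.2, 20.2 and 25.1 CPM, with a log2 fold change of 0.70 ± 0.21 (SE; unadjusted p 0.0141, edgeR adjusted p 1.00). Dusp5, a nuclear ERK phosphatase, was at 10.6, 12.6, 16.1 and 15.2 CPM and Spred1, an inhibitor related to the Sproutys, at 185, 197, 257 and 199 CPM. Il17rd, a membrane inhibitor of FGF signalling, at 249, 451, 279 and 294 CPM and Dusp4 at 90.3, 158, 98.4 and 114 CPM were named after their values were seen. Like Fgf3, Spry2, Dusp6 and Etv4 among the 10 genes, both had their highest level in untreated replicate 2.

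Of 15 other ERK-responsive transcription factor genes 12 passed the filter, with a median of 0.07 and a range of -0.24 to 0.76. Egr2 had 0 reads in all 4 libraries, and Fosb and Fosl1 at most 6. Junb, an immediate early gene, was at 4.82, 3.65, 6.82 and 7.56 CPM (0.76 ± 0.34, log2 fold change and SE) and Ier2, another, at 46.2, 50.3, 51.1 and 71.9 CPM, both higher in each dTAG-13 library than in either untreated one. Elk4, an ETS partner of serum response factor, was at 47.6, 45.5, 40.4 and 38.6 CPM, lower in both.

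**Figure D4:**
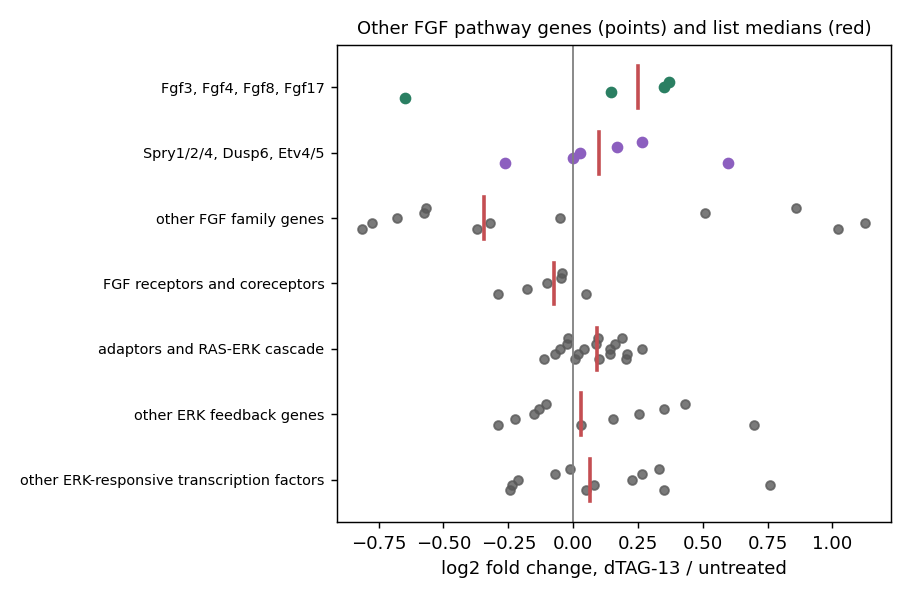
Fitted log2 fold change, dTAG-13 over untreated, of each gene that passed the filter, by list; points are genes (green ligands, purple feedback inhibitors and ETS factors, grey other pathway genes) and red bars list medians. Medians run from -0.35 for other FGF family genes to 0.25 for the 4 ligands, and no gene shown passed the threshold of the test.

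By likeness of pattern, measured as the root mean square difference of log2 CPM centred over the 4 libraries among 12437 other genes, the nearest to Fgf8 were Atp1b1 (0.0132), Zfp978 (0.0187) and Ssx2ip (0.0215). Atp1b1 was at 21.8, 27.4, 29.0 and 34.1 CPM. Among the 10 genes the nearest to Fgf8 were Etv5 (0.0909, rank 197) and Fgf17 (0.0951, rank 233). The nearest to Dusp6 were Sall4 (0.0202), Sf3a2 (0.0208) and Gm10130 (0.0344), with Sall4 at 385, 633, 478 and 569 CPM. Among the 10 genes, Spry2 (0.0996, rank 137) and Etv4 (0.148, rank 561) were nearest to Dusp6. These likenesses rest on 4 libraries and share their depth and replicate differences.

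Marker lists of the cell types that such gastruloids could hold were read in the same libraries, and edgeR called 0 genes of any list at an adjusted p below 0.05. Counts of markers whose groups did not overlap stand beside 14.4% of all genes higher and 11.9% lower. The 8 presomitic mesoderm markers summed to 205, 221, 154 and 118 CPM, with 7 of 8 lower in both dTAG-13 libraries (11.9% of all genes), 0 called and a median log2 fold change of -0.69, and Tbx6, their defining transcription factor, was at 19.5, 13.3, 10.3 and 7.30 CPM. The 7 tail bud and neuromesodermal markers summed to 228, 517, 210 and 353 CPM, with 1 higher and 1 lower without overlap, and T (brachyury) was at 53.1, 69.7, 44.5 and 69.6 CPM. Of the 8 somite markers 6 passed the filter and 3 were lower without overlap, and the list summed to 248, 131, 121 and 67.0 CPM. The defining markers of somitic gastruloids had reads in every library.

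Neural progenitor markers, 7 genes, summed to 189, 349, 135 and 187 CPM, with 6 lower without overlap (11.9% of all genes). Epithelial markers, 7 genes, summed to 520, 738, 921 and 1734 CPM, with 6 higher without overlap (14.4% of all genes). Surface ectoderm and apical ridge markers, a tissue that is another source of FGF ligands in the embryo, summed to 76.7, 171, 121 and 216 CPM, with 2 of the 5 kept higher without overlap. Pluripotency markers, 8 genes, summed to 298, 408, 370 and 582 CPM, with 2 higher without overlap. None of these markers was called. For the last list the count without overlap is close to what the share over all genes gives. All 8 pluripotency markers were higher with dTAG-13 within both replicate numbers, beside 27.7% of all genes tested, and their median log2 fold change was 0.45. This was not particular to them, as all 7 epithelial markers were also higher within both numbers (median 1.16). All 7 neural progenitor markers (median -1.99) and all 6 somite markers kept (median -1.04) were lower within both, beside 23.9% of all genes tested.

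Of the smaller lists, gut endoderm markers summed to 289, 219, 321 and 304 CPM (2 of 4 higher without overlap) and primordial germ cell markers to 81.4, 104, 126 and 210 CPM (1 of 4 higher), beside 14.4% of all genes. Midbrain-hindbrain boundary markers, a site of Fgf8 and Fgf17 in the embryo, summed to 19.3, 8.63, 58.6 and 11.5 CPM (1 of the 4 kept higher, also near that share), and cardiopharyngeal mesoderm markers to 23.3, 2.49, 34.5 and 4.33 CPM, with 0 of the 3 kept free of overlap. The sums of the last pair of lists were higher in the replicate 1 library of each group. Pax2 was the largest part of the midbrain-hindbrain sum, at 16.3, 3.20, 54.2 and 6.54 CPM. Of the other genes of that list, En2 and Wnt1 were also higher in replicate 1 of each group, while En1 and Pax5 were higher in replicate 2. Trh was the largest part of the gut endoderm sum, at 238, 182, 262 and 248 CPM. In the germ cell sum the largest part was Tfap2c in replicate 2 of each group (76.8 CPM untreated, 157 CPM with dTAG-13). In replicate 1 it was Prdm1 (37.1 CPM untreated, 60.4 CPM with dTAG-13). No marker of any list was at 0 in all 4 libraries. The part of these markers in the FGF and feedback values was not tested.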

How the data were processed

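RNA was extracted from somitic gastruloids with DNase treatment, and ribosomal RNA was removed before library preparation, per the labels' protocols. The deposited values are raw read counts per gene symbol, 1 table per library. Per the submitters' processing notes, which give no roles, the authors' tools were STAR 2.7.6a, HTSeq 0.12.4, fastp 0.20.1 and DESeq2 1.34.0, with builds GRCm38.p6 and mm10. The sources used here do not give the annotation, strand setting or read length. Reads that the tables place outside genes (24.1% to 35.7% of the total) or as ambiguous (0.209% to 0.240%) entered neither library sizes nor tests.

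Libraries were grouped by title. edgeR 4.0.16 in R 4.3.3 was used on all 4 libraries with the group as the only term: filterByExpr (minimum count 10, minimum total 15), TMM, robust quasi-likelihood fit, two-sided test, Benjamini-Hochberg adjustment over 13602 genes and a threshold of 0.05. Within-number differences used log2 CPM with a prior count of 2. The steps were tested on simulated data. Alternatives were RLE factors, no filter, at least 50 counts in 2 libraries, DESeq2 1.42.0, the replicate number as a block, and each library left out.

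The genes and lists were chosen with earlier results of these data known. All 10 genes were named, with the 3 of smallest p (average log2 CPM of at least 0) per further list, the 3 nearest patterns (average log2 CPM of at least 1) to Fgf8 and Dusp6, and T, Tbx6 and Zeb2.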

Additional observations from a re-analysis of the deposited data

How the results depend on the processing

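No gene of the 10 was called under any of the alternatives other than the replicate block. With the replicate number as a block, 1 of the 10 was called, Spry1 (log2 fold change 0.60, edgeR adjusted p 0.00185), as were 4 of the other pathway genes (Fgf9, Fgf10, Fgf15 and Dusp9) and 636 genes in all. The labels do not say that a number marks a shared culture. Same-numbered libraries deviated together from their group means (correlation 0.63 over all genes kept), and with 2 numbers this is 1 value. The block leaves 1 residual degree of freedom.

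Leaving out each library in turn gave a ligand median of 0.11 to 0.34 and a feedback median of -0.10 to 0.36. For single genes the range was -0.23 to 0.25 for Spry2, -0.0222 to 0.32 for Spry4, -0.30 to 0.43 for Dusp6 and -0.60 to 0.14 for Etv4, each crossing 0. Spry2 was -0.11 and Dusp6 -0.15 without dTAG-13 replicate 2. Spry2 also turned sign, at -0.0061 with RLE factors, -0.0061 with DESeq2 and -0.0166 with at least 50 counts in 2 libraries. The cause was not tested. Fgf3 (-0.85 to -0.44), Fgf4 (0.01 to 0.28), Fgf8 (0.21 to 0.53), Fgf17 (0.29 to 0.40), Spry1 (0.57 to 0.62) and Etv5 (0.08 to 0.46) kept their sign under every library left out. With an arm of 1 library, that library is assumed to vary like the others. With 2 libraries a group, precision is limited to the 95% intervals printed beside each gene.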
